A study of Mus musculus with 6 samples.

Results

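The NFAT family holds 5 genes in the mouse, Nfat5, Nfatc1, Nfatc2, Nfatc3 and Nfatc4, and their DNA methylation was examined here in mesangial cells with and without transforming growth factor β1 (TGF-β1). The 5 genes were taken by name from the GENCODE vM1 annotation of the mm9 mouse genome, each with 5 kb either side, and stood among 22367 protein-coding genes. Of the 579787 peaks called in the 6 samples, 249 had their summit in these windows, and they joined into 69 of 170444 regions where peaks overlapped by at least 1 bp. The rule used names and positions, not the values of the peaks. The members were, however, chosen with earlier results of these data known, and Nfat5 is listed in the study's supplement.

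NFAT proteins are transcription factors that bind DNA through a domain related to that of the Rel family. In resting cells Nfatc1 to Nfatc4 are held in the cytoplasm by phosphorylation. When calcium rises, calmodulin activates the phosphatase calcineurin, which strips these phosphates and lets the proteins enter the nucleus, until kinases return them to the cytoplasm. Nfat5, also known as TonEBP, lacks the calcineurin docking region and responds to hypertonicity, driving genes that let cells of the kidney gather osmolytes. In mammalian DNA, methylation sits mostly on cytosines of CpG pairs, and CpG-dense promoters are usually free of it.

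Genomic DNA came from mouse primary mesangial cells, the contractile cells that hold together the capillaries of the glomerulus. The 3 control samples and the 3 samples given TGF-β1 at 10 ng/ml for 72 h all grew in 25.5 mM glucose and 20% serum, at passages 3 to 6, so that high glucose was shared by both groups and a normal-glucose group was not analysed here. The labels do not say whether the samples of a group came from separate animals or cultures, and the p-values therefore measure only the spread between these samples. Nor do the labels say whether control cells received a vehicle. The labelled cell type could not be checked against its markers, since these lists hold DNA and not RNA. In MeDIP-seq, an antibody pulls down sheared DNA that carries methylated cytosine, and the fragments are sequenced and counted. Peak calling used 10319496, 9407103 and 11494356 reads in control replicates 1 to 3, and 12748318, 12634300 and 13291419 reads in TGF-β1 replicates 1 to 3. Every TGF-β1 sample was thus read more deeply than every control sample, so that in peak numbers and unscaled signal an effect of treatment cannot be told apart from one of depth.

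For each peak the lists give its pileup, which is the number of extended reads over its summit, and its fold enrichment over the local background. The lowest pileup called was 8 in each control sample, and 9, 9 and 10 in the TGF-β1 samples. A stretch without a peak did not pass this threshold, which does not show that it held no methylated DNA, and no upper limit can be given from a list that holds only passing values. Regions are numbered along each gene from its 5′ end (Nfat5-r1, Nfat5-r2 and so on).

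The reference DNA under these peaks, taken from the mm9 genome, shows what was called and what was not at Nfat5 and Nfatc2, whose 5′ ends are CpG-dense. The 300 bases before Nfatc3 and Nfatc4 were not called either, although they are CpG-poor, with 2.33 and 3.33 CpG per 100 bp, beside 2.99 around the summit of Nfatc3-r7. Each sequence reads 5′ to 3′ along the gene's own strand, and each CpG is in capitals. The first pair lies upstream of Nfat5. The called stretch around the summit of Nfat5-r1 (chr8:109816157-109816357, plus strand) had a peak in all 6 samples and 2.99 CpG per 100 bp, while the 300 bases just before the gene (chr8:109817070-109817369, plus strand) had 9.0 CpG per 100 bp and a peak in none.
Nfat5-r1: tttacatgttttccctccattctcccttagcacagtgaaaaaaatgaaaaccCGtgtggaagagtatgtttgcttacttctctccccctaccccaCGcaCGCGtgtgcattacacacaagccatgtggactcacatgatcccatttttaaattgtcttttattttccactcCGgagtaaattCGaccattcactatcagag
Nfat5 upstream: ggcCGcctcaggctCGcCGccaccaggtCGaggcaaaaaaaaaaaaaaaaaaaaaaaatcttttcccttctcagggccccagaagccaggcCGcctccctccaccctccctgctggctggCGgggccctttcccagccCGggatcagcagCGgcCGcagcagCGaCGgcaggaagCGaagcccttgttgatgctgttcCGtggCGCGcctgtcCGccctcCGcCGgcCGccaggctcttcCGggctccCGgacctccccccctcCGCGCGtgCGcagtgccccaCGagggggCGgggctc
The next pair belongs to Nfatc2, on the minus strand. The stretch of Nfatc2-r14 (chr2:168348593-168348793) crosses from the end of coding exon 6 into intron 6 and was called in all 6 samples, while the 300 bases before the gene (chr2:168427158-168427457) were called in none.
Nfatc2-r14: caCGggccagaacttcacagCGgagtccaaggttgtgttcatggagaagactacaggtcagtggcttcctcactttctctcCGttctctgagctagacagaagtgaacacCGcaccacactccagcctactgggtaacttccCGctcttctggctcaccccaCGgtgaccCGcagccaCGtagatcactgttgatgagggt
Nfatc2 upstream: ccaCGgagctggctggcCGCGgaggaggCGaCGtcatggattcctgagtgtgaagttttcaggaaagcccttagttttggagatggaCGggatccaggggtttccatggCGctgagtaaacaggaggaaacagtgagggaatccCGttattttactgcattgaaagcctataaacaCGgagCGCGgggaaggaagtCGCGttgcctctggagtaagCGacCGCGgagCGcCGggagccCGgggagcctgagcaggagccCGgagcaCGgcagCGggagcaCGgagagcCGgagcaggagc
The last pair shows a region of high and one of low pileup. Nfatc3-r7 in intron 9 of Nfatc3 (chr8:108637853-108638053, plus strand) had the highest pileup of that gene, and Nfatc4-r2, with its summit in intron 7 of Nfatc4 (chr14:56450616-56450816, plus strand), was the most often called region of its gene, with a peak in 3 samples. The stretch shown for Nfatc4-r2 ends inside coding exon 8.
Nfatc3-r7: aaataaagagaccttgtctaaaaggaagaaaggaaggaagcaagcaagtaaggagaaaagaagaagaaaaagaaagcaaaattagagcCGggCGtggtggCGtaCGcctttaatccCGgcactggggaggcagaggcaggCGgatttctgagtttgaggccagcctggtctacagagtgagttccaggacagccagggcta
Nfatc4-r2: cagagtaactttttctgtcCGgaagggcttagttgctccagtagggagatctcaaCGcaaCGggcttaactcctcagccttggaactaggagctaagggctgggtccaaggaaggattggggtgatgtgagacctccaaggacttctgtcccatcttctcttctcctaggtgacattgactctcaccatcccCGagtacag

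The first comparison asked whether TGF-β1 changed the number of methylated stretches called at these genes. Over the 5 genes, the controls had 37, 42 and 42 peaks and the TGF-β1-treated samples 44, 41 and 43. On average this came to 40.3 ± 2.89 peaks without TGF-β1 and 42.7 ± 1.53 with it (SD, n = 3), and the ranges of the groups overlapped. The difference of 2.33 peaks was smaller than the control SD (p = 0.4, two-sided exact permutation test, which with 3 against 3 samples cannot go below 0.1). Divided by depth, the order turned round, with 3.90 ± 0.489 peaks per 1000000 reads without TGF-β1 and 3.31 ± 0.122 with it (SD, n = 3; p = 0.1 by the same exact permutation test, the smallest it can give). The whole lists, which had 7895, 9603 and 8739 peaks per 1000000 reads in the controls and 7972, 7945 and 7939 after TGF-β1, were also lower on average on this scale, although their groups overlapped. The family's groups did not overlap on this scale, for which no share over all genes is given. For mean pileup divided by reads, 21.7% of 1187 genes had every TGF-β1 sample below every control sample and 0.337% every one above. Without control replicate 1 the unscaled family difference was 0.667 peaks. Over the 17949 protein-coding genes with a peak, 57.0% had more peaks on average in the TGF-β1-treated samples and 22.2% fewer, with a median difference of 0.333 peaks per gene.

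In the lists as deposited, no single gene separated the groups. Nfat5 had 2, 4 and 4 peaks in control and 6, 3 and 4 after TGF-β1. Nfatc1, the member whose product is best known from T cells, heart valves and osteoclasts, had 16, 17 and 15 in control and 17, 16 and 19 after TGF-β1. Nfatc2, which encodes a major NFAT protein of T cells, had 10, 11 and 16 in control and 11, 13 and 11 after TGF-β1, and its only sample apart was control replicate 3. Nfatc3 and Nfatc4, whose products act together in the forming blood vessels of the embryo, had means that differed in opposite directions. Nfatc3 had 9, 10 and 6 peaks in control and 9, 7 and 7 after TGF-β1. Nfatc4 had 0, 0 and 1 in control and 1, 2 and 2 after TGF-β1, so that both groups held a sample with 1 peak. Exact two-sided permutation tests (n = 3 against 3) gave p = 0.6 for Nfat5, 0.5 for Nfatc1, 1 for Nfatc2, 0.9 for Nfatc3 and 0.2 for Nfatc4. Groups without overlap were seen at 0 of the 5 genes, where 3.91% of genes with a peak had every TGF-β1 sample above every control sample and 0.345% had every one below. Stricter lists separated 2 of the genes. At a fold enrichment of at least 5, Nfatc4 had 0 peaks in each control and 1 in each TGF-β1 sample, where 2.32% of genes lay above in this way. These single peaks lay in different places, at Nfatc4-r1 upstream of the gene in TGF-β1 replicates 1 and 3 and at Nfatc4-r3 in coding exon 9 in TGF-β1 replicate 2. On the same lists Nfatc2 had 9, 9 and 11 in control and 7, 8 and 8 after TGF-β1, where 0.732% lay below. With an equal number of peaks per sample, Nfatc4 was again at 0 in each control and 1 in each TGF-β1 sample (1.48% of genes above and 1.29% below), and Nfatc2 overlapped.

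**Figure D1:**
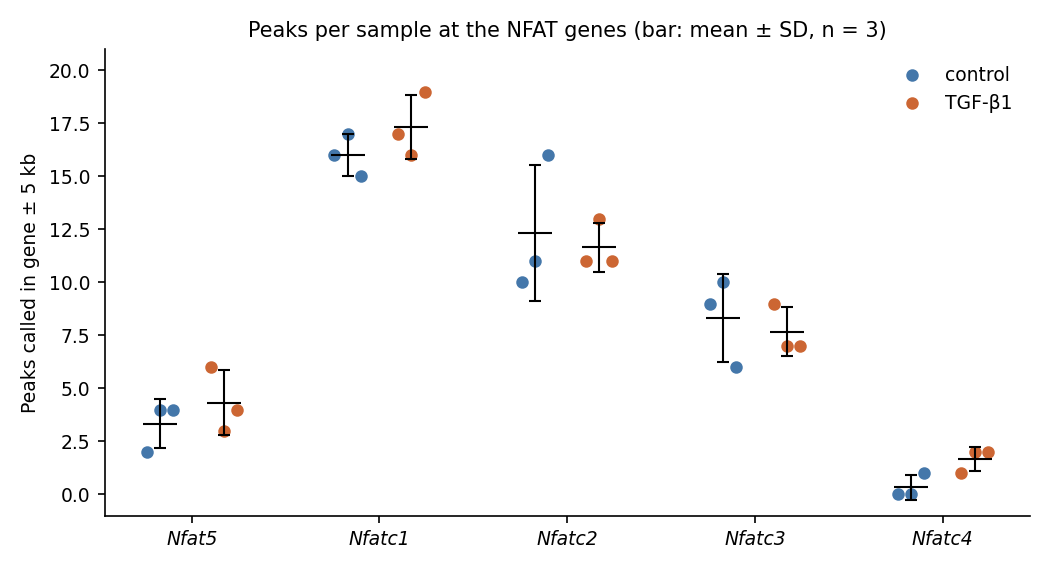
Number of peaks called in each gene and 5 kb either side (vertical axis) for Nfat5 and Nfatc1 to Nfatc4, with 1 point per sample (control blue, TGF-β1 orange) and black bars for the mean and SD of 3 samples. At every gene the points of the groups overlap in the lists as deposited, from Nfatc4 with 0 to 2 peaks to Nfatc1 with 15 to 19.

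Peak density per length differed between the genes. Nfatc1 had 14.3 peaks per 100 kb (12.8 to 16.3 over the 6 samples), which was above 93.1% of genes with a peak. It was followed by Nfatc3 with 9.79 (7.34 to 12.2) and Nfatc2 with 8.87 (7.39 to 11.8), which overlapped each other and lay below all 6 values of Nfatc1. Nfatc4 had 5.22 (0 to 10.4), a range so wide in a window of 19.1 kb that it reached across those of Nfatc2, Nfatc3 and Nfat5. Nfat5 was lowest with 3.99 peaks per 100 kb (2.08 to 6.25), at the 27.7th percentile, and its 6 values lay below all those of Nfatc2 and Nfatc3. The median gene with a peak had 6.60 peaks per 100 kb. The order of these densities was not that of the CpG content of the windows. Nfat5 had 0.641 CpG per 100 bp and Nfatc3 0.846, against 1.72 in Nfatc2, 1.89 in Nfatc1 and 2.05 in Nfatc4. Of the CpG pairs in each window, called regions held 15.2% at Nfatc1, 14.5% at Nfatc3, 11.5% at Nfatc2, 7.95% at Nfat5 and 6.38% at Nfatc4.

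Most NFAT regions were seen in more than 1 sample. Of the 69 regions, 21 (30.4%) had a peak in all 6 samples, where 24.5% of all regions did, and 15 (21.7%) had a peak in 1 sample, where 27.3% of all regions did. The regions called throughout were 10 of 27 at Nfatc1, 5 of 22 at Nfatc2, 5 of 11 at Nfatc3, 1 of 6 at Nfat5 and 0 of 3 at Nfatc4. Calls in every sample of a group and nowhere in the other were found at 0 of the 69 regions, against 0.948% of all regions for TGF-β1 and 0.233% for control. At least 2 more TGF-β1 than control samples had a peak at 3 regions, which were Nfatc2-r3, Nfatc2-r6 and Nfatc4-r1 (4.35%, against 7.85% of all regions). At least 2 more control than TGF-β1 samples had one at 0 regions, against 3.12% of all regions.

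**Figure D2:**
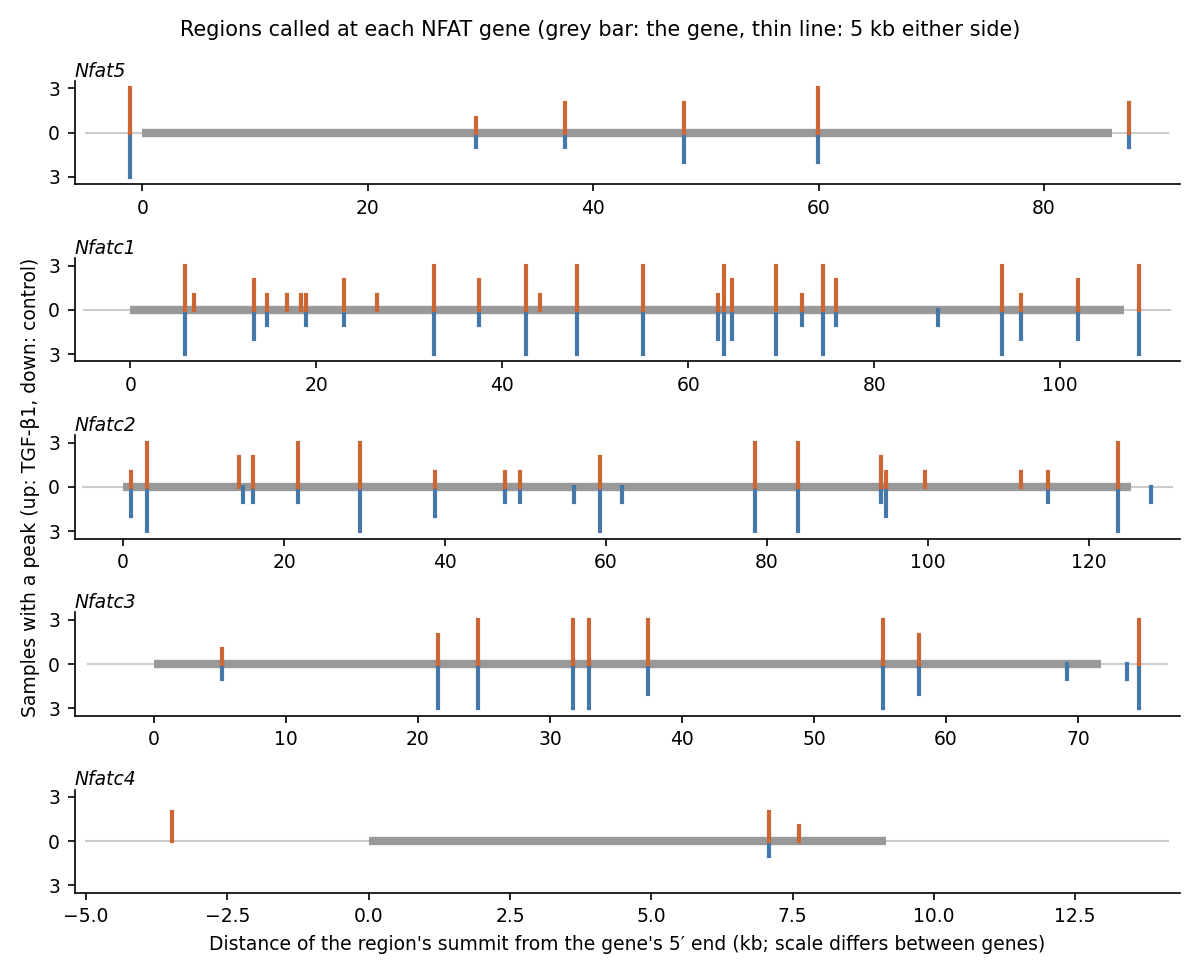
Position of the 69 regions along each gene, as distance of the summit from the gene's 5′ end in kb (horizontal axis, scaled per gene), with the number of TGF-β1 samples that had a peak upward in orange and of control samples downward in blue. Bars of full height in both directions mark the 21 regions called in all 6 samples, 10 of them at Nfatc1, and no full bar stands alone on one side.

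Nfat5 (ENSMUSG00000003847.9, chr8:109817370-109903417, plus strand) spans 86048 bp and was the least densely called member. Its only region called in all 6 samples was Nfat5-r1 (chr8:109816027-109816541), whose near edge lay 829 bp before the gene. Its pileup was 18, 15 and 17 in control and 17, 20 and 28 after TGF-β1, and only TGF-β1 replicate 3 stood above the rest. The other 5 regions were called in 2 to 5 samples each, 4 of them in introns and 1 in the downstream flank, with pileups from 12 to 25. No Nfat5 region touched a coding exon.

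Nfatc1 (ENSMUSG00000033016.9, chr18:80802944-80909810, minus strand) spans 106867 bp and held 27 regions. The strongest was Nfatc1-r24 in intron 9 (chr18:80815845-80816300), with pileups of 50, 48 and 59 in control and 68, 57 and 59 after TGF-β1. This was the highest mean pileup of the family, at 56.8 reads, and the groups overlapped. Nfatc1-r1 in intron 1 (chr18:80903735-80904135), 940 bp after an internal start, had 25, 17 and 25 in control and 24, 27 and 28 after TGF-β1. Summits of 22 regions lay in introns. Coding exons 2 and 8 of the transcript with 10 exons held 1 summit each, and the last exon of a shorter transcript held 2 in its untranslated part, one of which was called in all 6 samples.

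Nfatc2 (ENSMUSG00000027544.9, chr2:168301910-168427157, minus strand) spans 125248 bp, the longest of the 5 genes, and held 22 regions. The highest mean pileup among those called throughout was at Nfatc2-r21 in the 3′ untranslated part of exon 10 (chr2:168303422-168303887), with 30, 39 and 37 in control and 39, 35 and 38 after TGF-β1. Near its 5′ end, Nfatc2-r1 in intron 1 (chr2:168425880-168426350), 917 bp after a start, had pileups of 20 and 23 in control replicates 2 and 3 and 21 in TGF-β1 replicate 2, and no peak in the other 3 samples. Both Nfatc2 regions with a peak in at least 2 more TGF-β1 than control samples lay further in, in intron 1 of transcripts that begin at an internal start. Nfatc2-r3 (chr2:168412482-168412935) had 22 and 17 in TGF-β1 replicates 1 and 2. Nfatc2-r6 (chr2:168405173-168405624) had 24, 29 and 27 in the TGF-β1 samples and 23 in control replicate 2.

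Nfatc3 (ENSMUSG00000031902.8, chr8:108582740-108654437, plus strand) spans 71698 bp and held 11 regions. Nfatc3-r7 in intron 9 (chr8:108637757-108638421) had pileups of 43, 48 and 57 in control and 52, 53 and 59 after TGF-β1, with a mean of 52.0 reads. Coding exons 5 and 10 held 1 summit each, Nfatc3-r6 in 5 samples and Nfatc3-r9 in control replicate 2 alone. The last 2 regions, Nfatc3-r10 and Nfatc3-r11, lay beyond the gene in the neighbouring Esrp2, which encodes an epithelial splicing regulator.

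Nfatc4 (ENSMUSG00000023411.5, chr14:56443632-56452780, plus strand) spans 9149 bp, the shortest member, and had no region called in all 6 samples. Nfatc4-r1 (chr14:56440050-56440365), 3267 bp before the gene, had pileups of 16 and 20 in TGF-β1 replicates 1 and 3. Nfatc4-r2 (chr14:56450422-56450913), with its summit in intron 7 and 183 of its 492 bp in the coding exons 7 and 8, had 16 in control replicate 3 and 13 and 14 in TGF-β1 replicates 2 and 3. Nfatc4-r3 in coding exon 9 (chr14:56451155-56451451) had 16 in TGF-β1 replicate 2. The 6 peaks of Nfatc4 had pileups from 13 to 20, while those of Nfatc1, Nfatc2 and Nfatc3 reached 68, 39 and 59.

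By gene element, most called regions of the family lay in introns. Measured by the member's own transcripts, 53 of the 69 summits lay in introns, 6 in coding exons, 3 in untranslated exons, 2 upstream and 5 downstream. When the transcripts of all protein-coding genes were used, 78.3% of NFAT regions were intronic and 10.1% coding, beside 71.9% and 13.2% of the 102400 regions in windows of protein-coding genes. Counted by any coding base rather than by the summit, 12 of the 69 regions reached into a coding exon, and 3 of these had a peak in all 6 samples. They were Nfatc1-r14 at exon 5, Nfatc2-r7 at exon 2 and Nfatc2-r14 at exon 6, the last of which is printed above.

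At the transcription starts, no region was called in any member. The 5 genes have 5, 2, 8, 3 and 1 distinct starts in the order Nfat5, Nfatc1, Nfatc2, Nfatc3 and Nfatc4, and 0 regions lay within 500 bp of any of them. Over all protein-coding genes, 9.0% had a region within 500 bp of the 5′ end. The share varied with CpG content. When genes were put in 5 classes by the CpG content of the 1 kb around the 5′ end, the densest class, which holds Nfat5 (8.79 CpG per 100 bp), Nfatc1 (10.6) and Nfatc2 (8.19), had a region at 2.31% of its genes. The middle class, which holds Nfatc3 (2.80) and Nfatc4 (3.40), had one at 14.2%. The share did not fall steadily with CpG content, since it was 1.89% in the CpG-poorest class, 23.5% in the next and 4.01% in the class below the densest. The outermost start of Nfatc3 is not its CpG-dense one, since its other 2 starts, 763 and 1051 bp further in, had 10.5 and 11.0 CpG per 100 bp. Called NFAT regions had a median of 2.70 CpG per 100 bp, beside 2.37 over all regions. Regions with an edge within 1 kb of a start were 3, Nfat5-r1, Nfatc1-r1 and Nfatc2-r1, of which the first and second were called in all 6 samples.

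**Figure D3:**
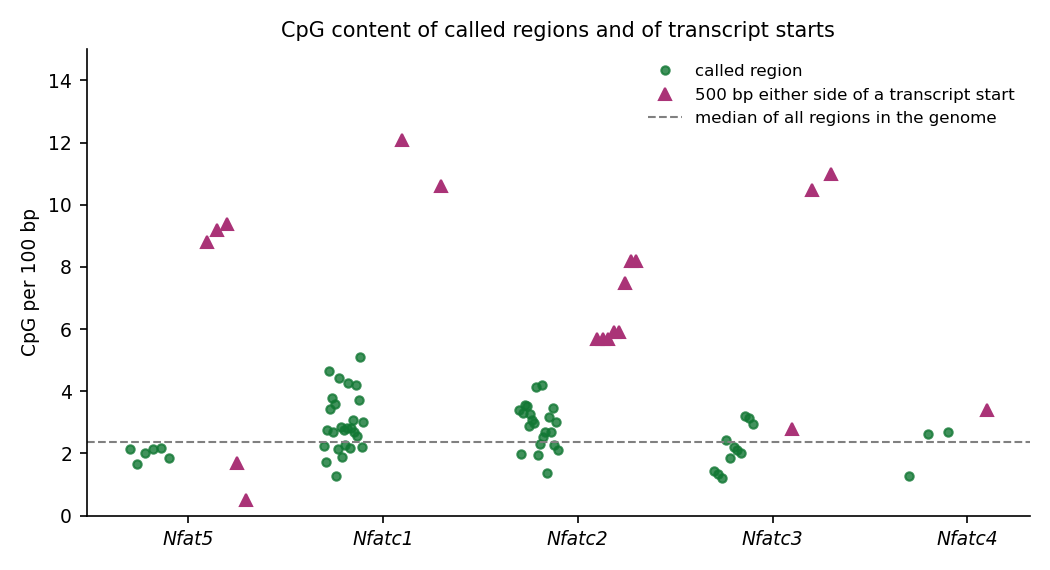
CpG pairs per 100 bp (vertical axis) in each called region (green circles) and in the 500 bp either side of each distinct transcript start (purple triangles) of the 5 genes, with the median of all regions in the genome, 2.37, as a dashed line. Most starts lie above all called regions of their gene, while 2 internal starts of Nfat5 and the outermost start of Nfatc3 lie among or below the regions.

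The second comparison asked whether the strength of methylation signal changed with TGF-β1 where both groups had peaks. The 21 NFAT regions called in all 6 samples were tested with the 41744 such regions of the genome, by limma on log2 pileup from which each sample's median had been subtracted. None of the 21 passed an adjusted p of 0.05 (smallest adjusted p = 0.999, limma with Benjamini-Hochberg adjustment), and of all 41744 tested regions 0% did. Regions without a peak in some sample, among them those called in 1 group alone, were outside this test. At an unadjusted p under 0.05 the count was 0 of 21, where 1.96% of regions were higher and 2.22% lower after TGF-β1. The difference was positive in 9 and negative in 12 regions, with a median log2 fold change of -0.09 (-0.02 without TGF-β1 replicate 2), where 49.2% of all tested regions were positive. Divided by reads in place of centring, the split was 4 positive and 17 negative, where 32.0% were positive. On that scale 4 of the 21 regions had an unadjusted limma p under 0.05, all lower after TGF-β1 (Nfatc1-r14, Nfatc3-r3, Nfatc3-r5 and Nfatc3-r11), where 5.72% of regions were lower and 0.508% higher, and 0 passed an adjusted p of 0.05. Leaving out the scaling moved the median of all regions by 0.22 on the log2 scale and turned the NFAT median to 0.14.

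At single regions the estimates lay within 2 standard errors of 0. Nfat5-r1 had a log2 fold change of 0.13 (limma SE 0.219), which was -0.03 without TGF-β1 replicate 3. Nfatc1-r24 had 0.01 (SE 0.152). Nfatc1-r14 in intron 5, with pileups of 37, 35 and 39 in control and 37, 34 and 35 after TGF-β1, had -0.29 (SE 0.180). Before scaling the 6 samples of this region were nearly level. Nfatc2-r15 in intron 6 (chr2:168343028-168343436) had 22, 19 and 20 in control and 26, 33 and 31 after TGF-β1. Its groups did not overlap as deposited, and its log2 fold change of 0.33 (SE 0.211) was the highest of the family on centred pileup. With fold enrichment in place of pileup it was 0.12, below the 0.18 of Nfatc1-r27. Nfatc2-r21 had -0.14 (SE 0.183) and Nfatc3-r7 -0.07 (SE 0.156). Both signs turned without centring, as that of Nfatc1-r24 did with division by reads. Each of these choices shifts all regions alike, so such a turn says nothing particular about these regions. As deposited, 3 of the 21 regions had every TGF-β1 sample above every control sample (Nfatc1-r10, Nfatc2-r14 and Nfatc2-r15) and 0 had every one below, where 14.6% and 0.309% of all tested regions did. After centring, 0 lay above and 2 below (Nfatc1-r14 and Nfatc3-r5), where 4.33% and 4.96% did. Divided by reads, 0 lay above and 4 below, the same 4 regions as in the limma test on that scale, where 1.97% and 10.4% did.

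**Figure D4:**
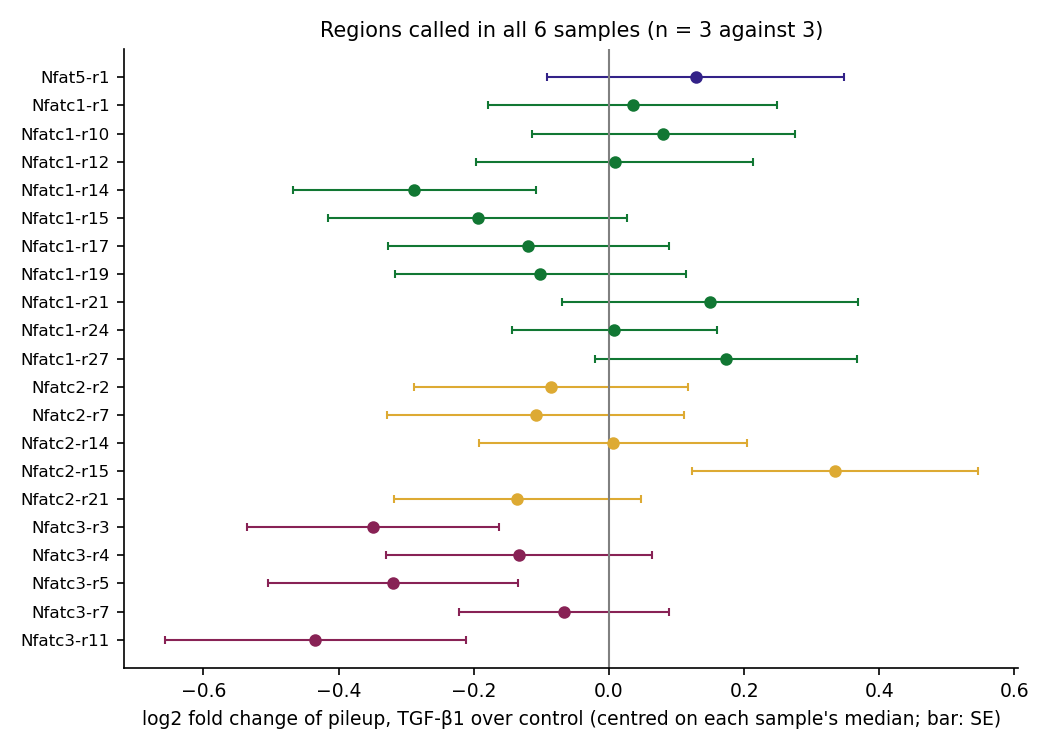
Log2 fold change of pileup between TGF-β1 and control (horizontal axis, points, with limma SE as bars) for the 21 NFAT regions called in all 6 samples, one per line, after centring on each sample's median. Points lie from -0.43 at Nfatc3-r11 to 0.33 at Nfatc2-r15, and all 5 regions of Nfatc3 lie left of 0, where 3 of them would lie without centring.

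The estimates of Nfatc3 were negative at 5 of 5 tested regions after centring or division by reads and at 3 of 5 as deposited, while those of Nfatc2 were positive at 5 of 5 as deposited and at 2 of 5 after centring. Regions called in at least 3 samples were also tested, with an uncalled sample set to its lowest called pileup. Among those of Nfatc3, Nfatc3-r6 (log2 fold change 0.12) and Nfatc3-r8 (0.06) were positive, and the others were negative. The 5 Nfatc3 regions called throughout had log2 fold changes from -0.43 to -0.07, with a median of -0.32, on the centred scale. None had an unadjusted limma p under 0.05 there, while 3 of them (Nfatc3-r3, Nfatc3-r5 and Nfatc3-r11) had one after division by reads, and Nfatc3-r11 also without control replicate 2. The lowest was Nfatc3-r11 in Esrp2 (chr8:108657086-108657593), with pileups of 20, 17 and 31 in control and 21, 19 and 17 after TGF-β1 (log2 fold change -0.43, SE 0.223). Here control replicate 3 stood apart, the other 5 samples lay between 17 and 21, and without it the log2 fold change was -0.26. Nfatc3-r3 in intron 2 had 39, 30 and 53 in control and 39, 33 and 37 after TGF-β1, again with control replicate 3 highest. Nfatc3-r5 in intron 3 had 37, 34 and 37 in control and 33, 36 and 32 after TGF-β1. Averaged over the 5 regions, centred log2 pileup was 0.597, 0.381 and 0.632 in control and 0.376, 0.245 and 0.207 after TGF-β1, a difference of -0.26. The groups did not overlap, although control replicate 2 and TGF-β1 replicate 1 nearly met, and this summary was chosen after the single regions had been seen. Of the 1187 genes with at least 5 such regions, 5.64% had every TGF-β1 sample below every control sample and 4.04% every one above. Counted from the lowest, the difference of Nfatc3 lay at percentile 0.421 of these genes. Dividing pileup by reads or taking it as deposited shifts the difference of every gene alike, so the percentile cannot change between these scales. Over the same 5 Nfatc3 regions the difference was -0.35 without overlap when pileup was divided by reads, where 21.7% of these genes lay below in the same way. As deposited it was -0.04 and the groups overlapped, on a scale where the median difference of these genes was 0.22. Over the 4 regions inside Nfatc3, without that in Esrp2, the difference on the centred scale was -0.22, also without overlap. Nfatc1 differed by -0.02 on the centred scale and Nfatc2 by 0.00, and both overlapped. As deposited, Nfatc2 was 0.22 higher after TGF-β1 without overlap, where 31.9% of these genes were.

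The height of peaks and the background they stood on differed between the members. MACS gives fold enrichment as pileup plus 1 over background plus 1, and the background of each peak, in reads, was computed from these. No input was used, so the background comes from the same sample's reads, in a window of 10000 bp or over the genome. It can thus include reads of neighbouring peaks. At Nfat5 the median peak had a pileup of 18 on a background of 1.91, and in control replicate 3 each of its 4 peaks stood on 1.76, which is the genome-wide value of that sample. At Nfatc1 the median pileup was 28 on a background of 4.50. Median fold enrichment was lower at Nfatc1 (5.38) than at Nfat5 (6.62), although its peaks were higher. Nfatc3 had a pileup of 29 on 3.51 and a fold enrichment of 6.56, and Nfatc2 had 23 on 3.14 and 5.85. The 6 peaks of Nfatc4 had a pileup of 16 on 2.01 and a fold enrichment of 5.29. Over all peaks of the 6 samples, the medians were 21 reads, 2.31 reads and 6.19.

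**Figure D5:**
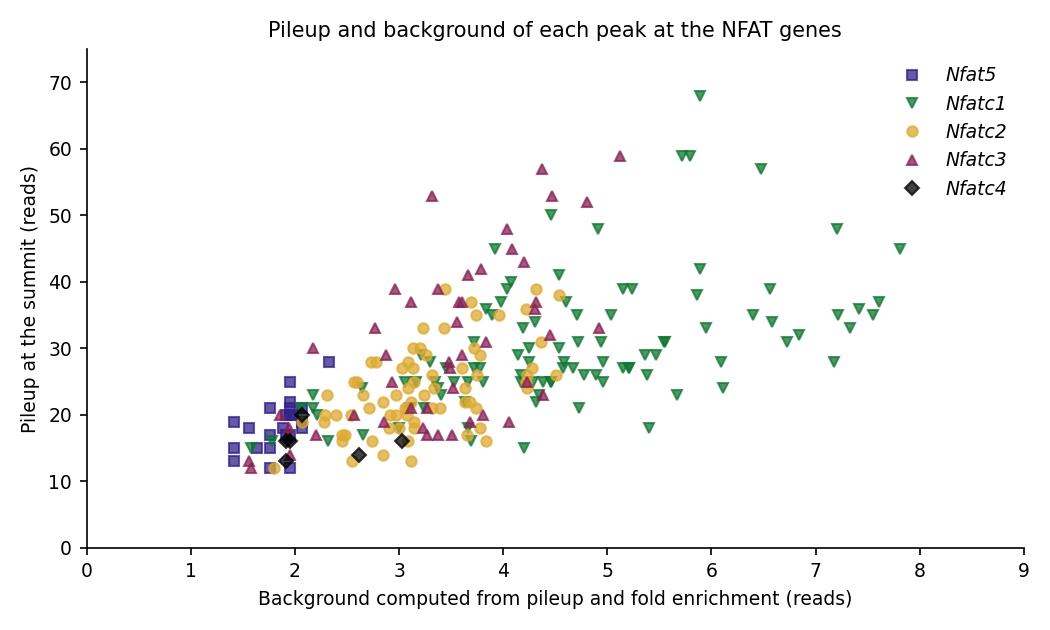
Pileup at the summit in reads (vertical axis) against the background computed from pileup and fold enrichment, in reads (horizontal axis), with 1 symbol for each of the 249 peaks and a colour for each gene. Peaks of Nfat5 and Nfatc4 gather at low backgrounds, and those of Nfatc1 reach a background of 7.81 and a pileup of 68.

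Among the sequences, Nfatc3-r7 carries the letters GCCTTTAAT, a stretch of the B1 short interspersed repeat of rodents. Searched on both strands as these 9 letters and with no other motif, they were found in 7 of the 69 NFAT regions (10.1%), and in 5.56% of all regions on the reference chromosomes. Of the 7 regions, 4 belonged to Nfatc3 (r3, r4, r6 and r7), 2 to Nfatc2 (r3 and r5) and 1 to Nfat5 (r4). These letters were looked for after the sequence of Nfatc3-r7 had been read, and a match says only that the letters are there.

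Genes that act on NFAT proteins or follow them were examined in the same windows, as 36 genes in 3 lists. All 36 had a peak in at least 1 sample, as did 17949 of the 22367 protein-coding genes. A region called in all 6 samples was found at 26 of them, for which no share over all genes is given. Of their 391 regions, 5 (1.28%) were called in each TGF-β1 sample and no control, and 3 (0.767%) the reverse, where 0.948% and 0.233% of all regions were. Mean peak numbers were higher after TGF-β1 in 22 genes, lower in 9 and equal in 5, a split in which treatment and depth cannot be told apart. Over all genes with a peak, 57.0% were higher and 22.2% lower. Groups did not overlap at 2 genes, Orai1 and Itpr2, both higher after TGF-β1, or 2 of 36 where 3.91% of genes with a peak were higher in this way. Of their 96 regions called in all 6 samples, 43 had a positive and 53 a negative log2 fold change, 3 and 2 of them at an unadjusted limma p under 0.05, where 1.96% and 2.22% of all tested regions were, and 0 at an adjusted one.

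The list of calcineurin and store-operated calcium entry (18 genes) held 241 of the 391 regions (61.6%) and 7 of the 8 called in one group alone. Orai1, the pore of the store-operated channel, had 1, 1 and 1 peaks in control and 2, 2 and 2 after TGF-β1, the added peak lying in intron 1 (chr5:123478743-123479206) with pileups of 19, 19 and 21. Itpr2, a receptor for inositol trisphosphate that releases stored calcium, had 40, 40 and 38 peaks in control and 41, 42 and 42 after TGF-β1. It was called only after TGF-β1 in coding exon 11 (chr6:146345233-146345664), with pileups of 17, 23 and 22, and in intron 9 (chr6:146359405-146359777), with 17, 16 and 19. In intron 41 (chr6:146180331-146181010) the calls stood in control alone, with 15, 20 and 16. Its relative Itpr1 had one in intron 10 after TGF-β1 (chr6:108310271-108310664), with 30, 36 and 42, the highest of these 8. It had another after TGF-β1 in untranslated exon 62 (chr6:108500636-108501083), with 19, 21 and 32, and one in control alone in intron 11 (chr6:108314467-108314793), with 23, 15 and 18. The peak numbers of Itpr1 overlapped between groups, with 24, 31 and 36 in control and 35, 29 and 29 after TGF-β1.

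Among the 12 inhibitors and NFAT kinases, such as the calcineurin inhibitors of the Rcan family and the kinases Dyrk1a and Gsk3b, 0 of 126 regions were called in one group alone, where 0.948% and 0.233% of all regions were for TGF-β1 and control. Mean peak numbers were higher after TGF-β1 in 7 of these 12 genes and lower in 4, where 57.0% and 22.2% of all genes with a peak were. Their median density was 9.69 peaks per 100 kb, beside 6.05 in the calcium list. The 6 osmotic target genes of Nfat5 had a median of 3.76, and 1 of their 24 regions was called in all 6 samples, where 24.5% of all regions were. One of them, Slc6a12, the betaine transporter, had a region in intron 2 (chr6:121299746-121300119) in control alone, with pileups of 16, 21 and 15. Its peak numbers were 3, 3 and 5 in control and 2, 3 and 1 after TGF-β1, which overlapped.

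Genes whose peak numbers varied most like those of a member were sought among 3436 genes with a mean of at least 5 peaks, by Pearson r of peaks per 1000000 reads over the 6 samples, which all genes share together with their depth. Closest to Nfatc1 were 2410089E03Rik (r = 0.991), Unc13c (0.986) and Hmga2 (0.985). Closest to Nfatc2 were Igsf11 (0.986), Map4k3 (0.986) and Ptprs (0.977). Closest to Nfatc3 were Tmcc3 (0.986), Sema3e (0.985) and Nfib (0.980). With 6 points and so many genes compared, values this high are a description of these samples. Nfat5 and Nfatc4 had too few peaks for this measure.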

How the data were processed

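Per the file headers and the study's methods, the authors mapped reads to mm9 with BWA, kept unique reads once per starting position, and called peaks in each sample with MACS 2.1.0.20150731 at a q cutoff of 0.01 without an input. The authors' pileup is a signal in extended reads, unscaled. Their fold enrichment, as deposited, is a ratio of pileup to background (a window of 10000 bp or the genome), each plus 1. Significance was deposited as -log10 of p and q. Positions were counted from 1.

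Peaks were assigned by summit and joined by 1 bp. Genes came from GENCODE vM1, and sequence from NCBIM37, the mm9 assembly. The highest pileup per region and sample was tested with limma 3.58.1 in R 4.3.3 (eBayes with trend), and the code was tested on simulated data. Counts of peaks were compared in Python 3.11.15 by exact permutation over 20 assignments. The members, gene lists and tests were chosen with earlier results of these data known.

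Regions named singly were, per gene, that with the highest mean pileup and that with the lowest limma p among those called in all 6 samples, and any within 1 kb of a start. Also named were regions or pathway genes with calls in every sample of a group and nowhere in the other, and, per member with a mean of at least 5 peaks, the 3 genes with the most similar peak numbers. Nfatc2-r3, Nfatc2-r6, Nfatc3-r3, Nfatc3-r5, the regions without overlap, those reaching coding exons and those of Nfatc4 were named after their values were seen. Alternatives were a -log10 q or a fold enrichment of at least 5, windows of 2 kb or none, an equal number of peaks, division by reads, no centring, joining at 200 bp, fold enrichment in limma, regions called in at least 3 samples, omission of single samples, and a block for replicate number.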

Additional observations from a re-analysis of the deposited data

How the results depend on the processing

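Of the peak differences (TGF-β1 minus control), those of Nfat5 and Nfatc4 kept their sign in all 14 alternatives. The replicate block, which is among these 14, cannot change a difference of means. The difference of Nfat5, 1, was however 0.167 without TGF-β1 replicate 1, 0.333 without control replicate 1 and 0.0140 per 1000000 reads. That of Nfatc4, 1.33, was 0.667 with 2 kb either side and with the gene body only (exact permutation p = 0.7 in both). The family difference of 2.33 turned to -2.67 at a fold enrichment of at least 5, -1.67 with an equal number of peaks per sample and -0.591 per 1000000 reads, and was 0.667 without control replicate 1. Nfatc1 turned from 1.33 to -1 at that fold enrichment and -0.211 per 1000000 reads. It was 0 with an equal number of peaks per sample and 0.5 without TGF-β1 replicate 3. The differences of Nfatc2 and Nfatc3 were both -0.667. Leaving out 1 sample put that of Nfatc2 between -1.83 and 1.17, the latter without control replicate 3. That of Nfatc3 came to lie between -1.83 and 0.167, the latter without control replicate 2. At a fold enrichment of at least 5, Nfatc2 was at -2 and Nfatc3 at -1.67. With an equal number of peaks per sample, Nfatc2 was at -1.67 and Nfatc3 at -2. The number of NFAT regions with a peak in all samples, 21, ranged from 14 to 22. By limma 0 NFAT regions passed an adjusted p of 0.05 in any of 11 alternatives. At an unadjusted p under 0.05 the count was 4 with division by reads (3 of them Nfatc3), 1 without centring and 2 without control replicate 2. Of all 41744 regions tested, 212 were higher and 2387 lower at this unadjusted p with division by reads. Without centring 4855 were higher and 17 lower. Without control replicate 2 these counts were 813 and 1030. At an adjusted p of 0.05 limma called 1 of all tested regions, in the alternative with fold enrichment. The median log2 fold change of the 21 regions was 0.14 without centring, which moved all regions up. Same-numbered samples did not deviate together (r of -0.0464, 0.0432 and -0.130). The replicate block cannot change the family difference of 2.33. Its exact sign-flip test over 3 pairs, which cannot go below 0.25, gave p = 0.75. With this block limma called 0 regions. Depth limits what can be shown, since a region under the threshold in one sample gives no value there, so that 21 of the 69 NFAT regions were tested without a filled-in value, and 44 when an uncalled sample was set to the lowest pileup called in it.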
